A study of Mus musculus with 20 samples.

Results

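The collagen genes of the mouse heart were followed across 5 regions of the organ. The members were all genes whose name on the array platform consists of Col, a number, the letter a and a number, which gave 37 genes of the 16593 that were measured under 1 name. A gene with several probes was represented by the one whose average was highest in the 19 arrays that exclude LV replicate 4. By the structure that their proteins build, 11 members were fibrillar collagens, 8 were basement membrane collagens, 6 were fibril-associated, 4 were transmembrane, 3 formed beaded filaments, 2 formed short chain networks, and 1 was the anchoring fibril collagen. Another 2, Col26a1 and Col28a1, were placed in none of these classes. RefSeq names 44 collagen genes in the mouse, and the other 7, among them Col6a3 and Col12a1, had no probe under their name and were not analysed here.

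RNA was taken from the sinoatrial node (SA), the left atrium (LA), the right atrium (RA), the left ventricle (LV) and the right ventricle (RV) of C57/BL6 males that were 5 to 10 weeks old, with 4 Illumina bead arrays for each region. The labels name no treatment, and all hearts were perfused under pentobarbital and heparin before the LV, the free wall of the RV, the LA next to the pulmonary vein and, in separate dissections, the SA were cut out. In the comparisons below, atria stands for the mean of LA and RA, and V stands for the mean of LV and RV. Values are z-scores, scaled separately for each array, so that 0 is the mean of all probes of the array and a difference of 1 equals their SD. Whether arrays of a region came from separate animals is not given in the labels, which state that each LV was cut into 3 pieces. For each SA sample, tissue of several mice was needed, and the SA piece bordered on the RA. The spread and the p-values therefore refer to these samples and may be technical. The title of RV replicate 2 names RA, while its source and description name the right ventricle, and the source was followed.

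Collagens are the main structural proteins of the space between cells. Fibrillar collagens, above all types I and III, are made in the heart mostly by fibroblasts and assemble into the fibrils that hold muscle bundles together, while fibril-associated collagens coat those fibrils. Collagen IV forms the sheet of the basement membrane around muscle cells and capillaries, collagens XV and XVIII are bound to that sheet, and collagen VI forms fine filaments near the cell surface. The pacemaker cells of the SA are known to lie in a dense collagen matrix.

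LV replicate 4 stood apart from the rest. Its mean Spearman correlation across probes was -0.0223 with the other LV arrays and -0.0445 with the other regions, against 0.861 to 0.959 for the remaining arrays. Of the 10 collagens that lay above 0 in each of the other 19 arrays, only 1, Col1a1, lay above 0 in LV replicate 4. All tests below therefore used 19 arrays, and values that include LV replicate 4 are named as such. Among these 19, LV replicate 3 had the lowest mean correlations, 0.880 with its region and 0.861 with the other regions, and the lowest minimum, -1.91. It was the highest of the LV arrays kept for 46.1% of all genes. With all 20 arrays, 7 collagens passed between SA and V, or 18.9% of the members, against 6.9% of all genes. Between atria and V 10 passed, or 27.0%, against 10.3%. Markers of the regions followed the labels. All 5 atrial muscle genes passed as higher in atria than in V, all 5 ventricular genes passed as lower, and of the 5 node genes measured, all passed as higher in SA than in LA and 4 as higher in SA than in RA, with Tbx18 at or below 0 in all 19 arrays. The 8 lung and airway genes measured averaged between -0.65 and 0.495 in the SA arrays, highest in replicate 2, with an SA mean of -0.25. In the atrial and ventricular arrays they averaged between -0.72 and -0.555. The part of these genes in the SA differences was not tested.

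Among the 37 collagens, 10 lay above 0 in all 19 arrays: Col1a1 and Col5a1 of the fibrillar class, Col4a1, Col4a2, Col4a5, Col15a1 and Col18a1 of the basement membrane class, Col6a1 and Col6a2 of the beaded filaments, and the fibril-associated Col16a1. Another 5, Col1a2, Col3a1, Col4a4, Col14a1 and Col23a1, lay above 0 in some arrays only. The remaining 22 did not exceed 0 in any of the 19 arrays, and 10 of these did not exceed the array median in any. Detection p-values were not used here, so a low value cannot be told apart from the background of its probe, and levels of different probes were not set against each other. In bulk tissue, fewer cells of a type and less RNA per cell cannot be told apart.

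The first comparison asked which collagens the SA expressed at another level than the ventricles. With limma and Benjamini-Hochberg adjustment over all 16593 genes (threshold 0.05), 15 of the 37 collagens were higher in SA than in V and 4 were lower, together 51.4% of the members against 33.2% of all genes. For single directions, 17.0% of all genes were called higher and 16.2% lower. The median difference was 0.02 over the collagens and -0.03 over all genes. The 15 higher collagens included fibrillar, fibril-associated, basement membrane and beaded filament genes with differences from 0.115 to 0.84. In 11 of the 37 members every SA array lay above every ventricular array, which was so for 11.1% of all genes. In 1 of the 37 every SA array lay below, against 8.36%. In the comparison of the atria with V, 13 collagens were higher and 5 were lower, together 48.6% of the members against 42.4% of all genes, of which 18.4% were higher and 24.0% lower. The median difference there was 0.03 over the collagens and -0.03 over all genes. Every atrial array lay above every ventricular array for 8 of the 37 members and for 7.53% of all genes, and below for 0 members and 5.97% of all genes. The moderated F test over the 5 regions called 18 collagens, or 48.6%, against 38.9% of all genes. SA versus V and atria versus V share the ventricular arrays, so their values stand side by side without a test of their likeness.

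**Figure D1:**
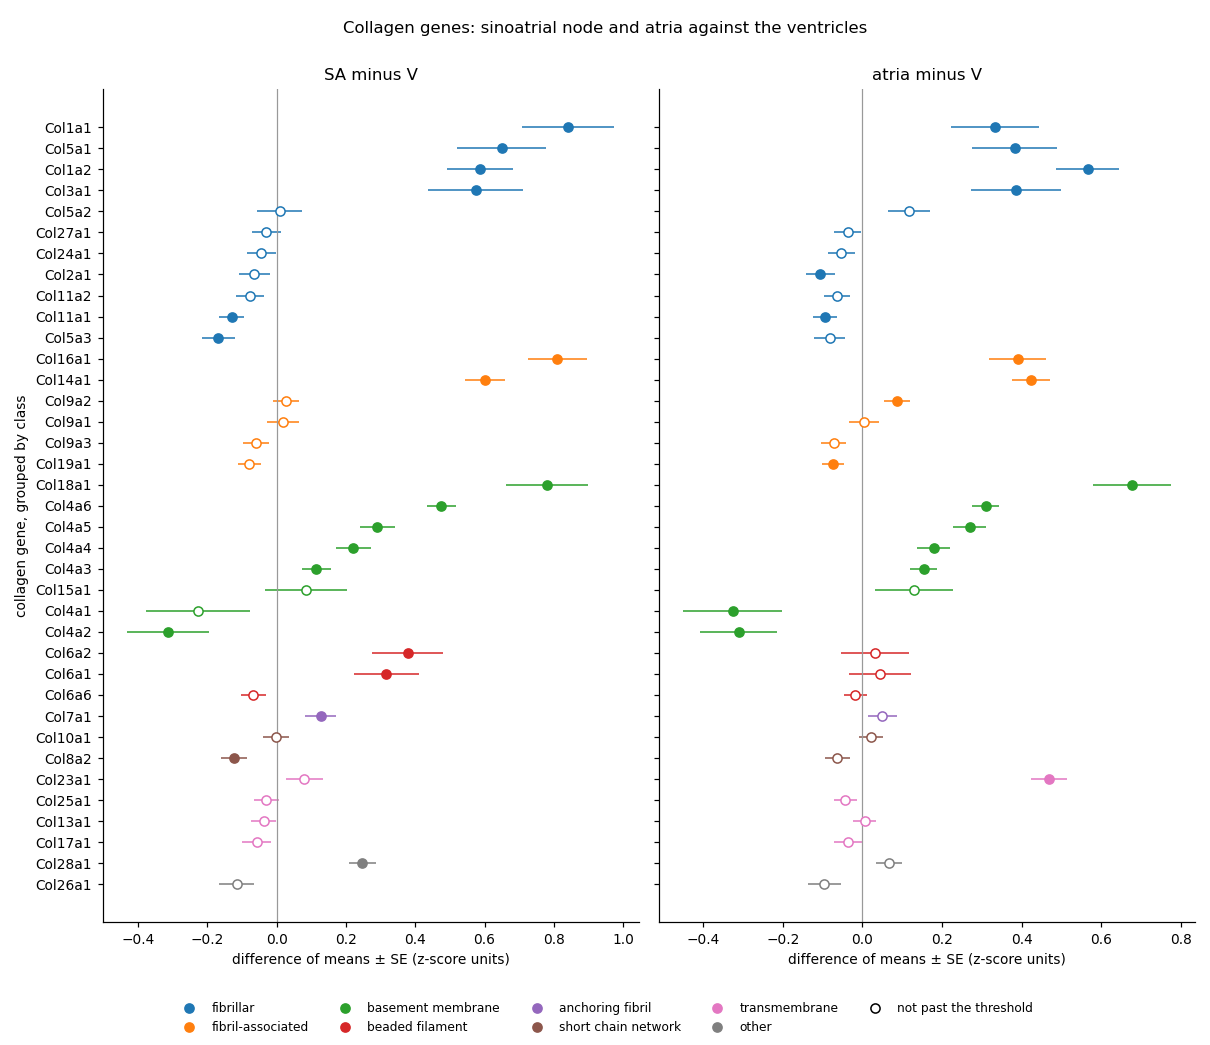
Differences of region means with SE, in z-score units, for the 37 collagen genes grouped by class, for SA minus V on the left and atria minus V on the right. Filled points passed the threshold, and Col1a1, Col16a1 and Col18a1 reach 0.84, 0.81 and 0.78 in SA, while Col4a1 and Col4a2 lie at -0.33 and -0.31 in the atria.

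Of the 11 fibrillar collagens, 4 were higher in SA than in V, 2 were lower and 5 did not pass. The same counts, 4 higher and 2 lower, were found for the atria. Col1a1, the major chain of collagen I, was at 1.28, 1.18, 1.31 and 1.29 in SA, against 0.59, 0.57 and 0.45 in LV and 0.39, 0.41, 0.29 and 0.15 in RV. All SA arrays lay above all ventricular arrays, with a difference of 0.84 ± 0.13 (SE, limma adjusted p = 7.18e-05). In the atria Col1a1 varied more widely, with 0.79, 0.28, 0.91 and 0.48 in LA and 0.94, 0.57, 1.44 and 0.64 in RA. The atria overlapped the ventricles, and their difference from V was 0.33 ± 0.11 (adjusted p = 0.0219). The atrial call was lost with quantile normalization.

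Col1a2, the partner chain of collagen I, was at 0.75, 0.71, 0.63 and 0.67 in SA, 0.77, 0.64, 0.70 and 0.39 in LA and 0.61, 0.60, 1.12 and 0.52 in RA. The ventricular arrays were lower than all of these, with 0.05, -0.09 and 0.09 in LV and 0.20, 0.37, 0.17 and 0.02 in RV. The difference from V was 0.59 ± 0.10 in SA (limma adjusted p = 0.000101) and 0.57 ± 0.08 in the atria (adjusted p = 1.34e-05). Col3a1, the chain of the thinner collagen III fibrils, was at 0.88, 0.49, 0.52 and 0.97 in SA, 0.81, 0.47, 0.73 and 0.40 in LA and 0.39, 0.29, 1.04 and 0.08 in RA. In the ventricles it was at -0.04, 0.03 and 0.06 in LV and 0.23, 0.28, 0.21 and 0.34 in RV. SA lay above all ventricular arrays by 0.57 ± 0.14 (adjusted p = 0.00318), whereas the atria overlapped RV and were higher than V by 0.39 ± 0.11 (adjusted p = 0.0113). A second Col3a1 probe, at -0.57 on average, gave 0.15 in SA and 0.12 in the atria.

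Col5a1, a chain of the collagen V that starts fibril growth, was at 1.80, 1.59, 1.85 and 1.85 in SA, 1.5, 1.35, 1.61 and 1.35 in LA and 1.43, 1.36, 2.15 and 1.29 in RA. The ventricular arrays lay below all of them, with 1.21, 1.25 and 0.85 in LV and 1.22, 1.26, 1.14 and 0.95 in RV. The difference from V was 0.65 ± 0.13 in SA (limma adjusted p = 0.00065) and 0.38 ± 0.11 in the atria (adjusted p = 0.00795). The other chains of collagen V lay below 0 in all 19 arrays. Col5a2 lay between -0.82 and -0.29 in all 19 arrays and passed neither test, with differences of 0.01 ± 0.06 in SA and 0.12 ± 0.05 in the atria. Col5a3 was lower in SA than in V, by -0.17 ± 0.05 (adjusted p = 0.0101), with SA at -0.54, -0.50, -0.46 and -0.48. Its ventricular values were -0.37, -0.04 and -0.26 in LV and -0.48, -0.40, -0.38 and -0.46 in RV, so the groups overlapped. Col11a1 and Col2a1, collagens of cartilage, stayed below 0 in all arrays, and their lower values in the atria, by -0.09 ± 0.03 and -0.11 ± 0.04, were lost when the mean of all their probes was used. Without LV replicate 3 they were lost as well. The remaining fibrillar genes, Col11a2, Col24a1 and Col27a1, lay below 0 in all arrays and passed neither comparison.

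Promoters are shown for 3 of the 11 collagens that were higher in both SA and the atria than in V. The RefSeq promoter table of build GRCm38.p6 had an entry for 30 of the 37 members and for 8 of these 11, and the 3 shown were those whose window, the 250 bases before the start used in the table, lay wholly outside the annotated gene. Each is given 5′ to 3′ along the strand of its gene, plus for Col1a2 and Col3a1 and minus for Col18a1, a basement membrane collagen described below. Capitals mark matches to the CCAAT box (CCAAT or ATTGG), the GC box (GGGCGG or CCGCCC) and the TATA box (TATAAA or TTTATA), searched on both strands.
Col1a2, chr6:4505368-4505617: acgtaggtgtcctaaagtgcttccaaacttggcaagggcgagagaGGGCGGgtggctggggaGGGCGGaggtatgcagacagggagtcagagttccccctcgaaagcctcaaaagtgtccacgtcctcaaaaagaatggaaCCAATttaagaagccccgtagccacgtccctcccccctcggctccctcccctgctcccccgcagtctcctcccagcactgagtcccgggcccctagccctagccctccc
Col3a1, chr1:45311288-45311537: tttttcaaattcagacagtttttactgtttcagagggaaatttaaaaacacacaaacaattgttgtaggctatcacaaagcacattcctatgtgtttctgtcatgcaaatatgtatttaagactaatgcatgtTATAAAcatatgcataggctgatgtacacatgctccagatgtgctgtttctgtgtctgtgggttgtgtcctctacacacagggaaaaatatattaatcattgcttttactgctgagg
Col18a1, chr10:77166531-77166780: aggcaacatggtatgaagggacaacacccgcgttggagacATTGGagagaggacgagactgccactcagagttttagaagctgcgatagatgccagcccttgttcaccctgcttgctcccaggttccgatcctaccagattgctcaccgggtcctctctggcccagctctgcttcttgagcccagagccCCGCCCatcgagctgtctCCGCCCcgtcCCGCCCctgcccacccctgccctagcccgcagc
G and C made up 62% of the windows of Col1a2 and Col18a1 and 35.2% of that of Col3a1, against a median of 52.4% over 32851 windows of the table. The Col1a2 window held a CCAAT box that began 109 bases before the start and 2 GC boxes. Col18a1 held a CCAAT box at 210 bases and 3 GC boxes, the nearest at 33 bases. The only match in Col3a1 was a TATA box at 117 bases. A CCAAT box was found in 36.4% of the 33 collagen windows, against 33.8% of all windows, a GC box in 57.6%, against 32.7%, and a TATA box in 15.2%, against 12.4%. These matches describe letters in the windows only.

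The fibril-associated class had 6 measured members, of which Col14a1 and Col16a1 were higher in both SA and the atria than in V. Col14a1, which binds to the surface of fibrils, was at 0.28, 0.30, 0.27 and 0.29 in SA, 0.20, 0.05, 0.16 and 0.01 in LA and 0.19, 0.08, 0.26 and -0.10 in RA. It was at -0.28, -0.32 and -0.30 in LV and at -0.36, -0.47, -0.23 and -0.28 in RV. SA, atria and ventricles formed separate ranges in this order. The difference from V was 0.60 ± 0.06 in SA (limma adjusted p = 1.84e-07) and 0.42 ± 0.05 in the atria (adjusted p = 9.94e-07), and neither call was lost under any alternative tried. Col16a1 was at 1.60, 1.48, 1.59 and 1.59 in SA, 1.10, 0.93, 1.15 and 0.92 in LA and 1.10, 1.17, 1.70 and 1.09 in RA. Its ventricular arrays were close together, with 0.75, 0.77 and 0.72 in LV and 0.76, 0.84, 0.74 and 0.71 in RV. SA was higher than V by 0.81 ± 0.09 (adjusted p = 6.94e-07), the second largest difference among the collagens, and the atria by 0.39 ± 0.07 (adjusted p = 0.000245). The other 4 members, Col9a1, Col9a2, Col9a3 and Col19a1, lay below 0 in all 19 arrays. Col9a2 was higher by 0.09 ± 0.03 and Col19a1 lower by -0.08 ± 0.03 in the atria, and these calls were lost in 9 and 13 of the 26 alternatives. The fit without LV replicate 3 enters these and all other counts of alternatives under 2 names.

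**Figure D2:**
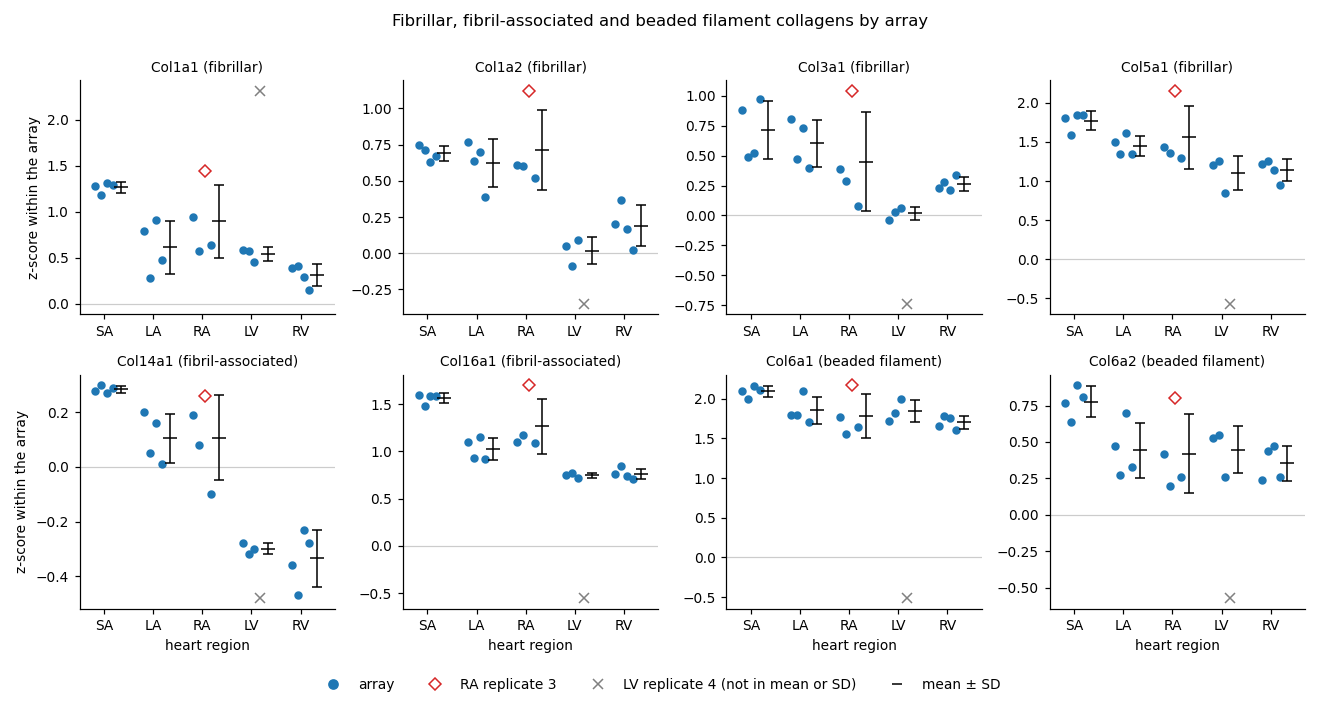
Z-score within the array (vertical axis) of 8 fibrillar, fibril-associated and beaded filament collagens in SA, LA, RA, LV and RV, with 1 point per array and the mean ± SD to the right of each group. The open diamond is RA replicate 3, which is the highest RA array in every panel, and the cross is LV replicate 4, which is left out of the mean and SD.

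Col6a1 and Col6a2, chains of the collagen VI filaments, were higher in SA than in V and showed no called difference between atria and V. Col6a1 was at 2.10, 1.99, 2.16 and 2.11 in SA, against 1.72, 1.82 and 2.0 in LV and 1.66, 1.78, 1.75 and 1.61 in RV. The lowest SA array lay just under the highest LV array, and the difference was 0.32 ± 0.09 (limma adjusted p = 0.0151). Col6a2 was at 0.77, 0.64, 0.89 and 0.81 in SA, against 0.53, 0.55 and 0.26 in LV and 0.24, 0.44, 0.47 and 0.26 in RV. The groups did not overlap, with a difference of 0.38 ± 0.10 (adjusted p = 0.00811). For the atria the differences were 0.04 ± 0.08 for Col6a1 and 0.03 ± 0.08 for Col6a2. The probes of Col6a1 disagreed: another gave 0.38 for SA against V and 0.21 for the atria against V, and the last, at -0.65 on average, gave -0.06 and -0.02.

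The basement membrane class moved in opposite directions within collagen IV. Col4a1 and Col4a2, the chains of the collagen IV found in all basement membranes, were lower in the atria than in V, while Col4a3, Col4a4, Col4a5 and Col4a6, the chains of the more restricted collagen IV networks, were higher. LV carried most of the difference of Col4a1 and Col4a2. Means of Col4a2 were 2.20 in LV, 1.775 in RV, 1.67 in SA, 1.65 in LA and 1.70 in RA. Those of Col4a1 were 2.57, 2.25, 2.19, 2.095 and 2.08 in the same order. RV alone was not tested against the atria or SA. Col4a1 was at 2.04, 2.07, 2.44 and 1.83 in LA and 2.04, 1.80, 2.72 and 1.76 in RA, against 2.34, 2.79 and 2.59 in LV and 2.14, 2.41, 2.34 and 2.12 in RV. The groups overlapped, and the difference of -0.33 ± 0.12 (limma adjusted p = 0.0427) was lost in 13 of 27 alternatives. Col4a2 was at 1.66, 1.57, 1.82 and 1.55 in LA and 1.70, 1.37, 2.22 and 1.51 in RA, against 2.03, 2.36 and 2.20 in LV and 1.67, 1.85, 1.92 and 1.66 in RV. Its difference was -0.31 ± 0.10 (adjusted p = 0.0164), and of the 27 alternatives only the one with LV replicate 4 lost it. In SA, Col4a2 was at 1.58, 1.60, 1.84 and 1.67, lower than V by -0.31 ± 0.12 (adjusted p = 0.0488, lost in 16 of 27 alternatives), and Col4a1 differed from V by -0.23 ± 0.15 and did not pass.

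Col4a5 was at 0.60, 0.58, 0.63 and 0.74 in SA, 0.82, 0.75, 0.57 and 0.50 in LA and 0.53, 0.56, 0.65 and 0.55 in RA, against 0.44, 0.44 and 0.42 in LV and 0.26, 0.26, 0.30 and 0.22 in RV. All SA and atrial arrays lay above all ventricular arrays, by 0.29 ± 0.05 in SA (limma adjusted p = 0.000172) and 0.27 ± 0.04 in the atria (adjusted p = 3.88e-05). Col4a6 was at -0.20, -0.19, -0.32 and -0.30 in SA, -0.36, -0.22, -0.38 and -0.38 in LA and -0.54, -0.56, -0.38 and -0.53 in RA. It was at -0.73, -0.73 and -0.72 in LV and at -0.74, -0.69, -0.69 and -0.80 in RV, below every other array. The difference from V was 0.48 ± 0.04 in SA (adjusted p = 5.87e-08) and 0.31 ± 0.03 in the atria (adjusted p = 8.84e-07). Another probe gave 0.37 and 0.25, and the last, at -0.71 on average, gave -0.03 and -0.07. Col4a4 was higher than V by 0.22 ± 0.05 in SA and by 0.18 ± 0.04 in the atria, and Col4a3 by 0.115 ± 0.04 and 0.15 ± 0.03 in the same comparisons, with overlapping arrays for both genes. A second Col4a4 probe, at -0.66 on average, gave 0.036 in SA and 0.006 in the atria. The Col4a3 call in SA was lost in 9 of 26 alternatives.

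Genes of collagen IV lie in pairs that are transcribed away from each other. In the RefSeq promoter table of GRCm38.p6, the starts of Col4a1 (minus strand) and Col4a2 (plus strand) lie 21 bases apart on chromosome 8. That of Col4a1 is at the higher position, so the genes overlap there. The starts of Col4a6 (minus strand) and Col4a5 (plus strand) lie 1343 bases apart on chromosome X, without overlap. The 2 genes of each of these pairs had differences of the same sign from V in the atria. Col4a3 and Col4a4, whose annotated spans overlap on chromosome 1, are not given, because the promoter table had no entry for Col4a3.

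Col18a1, whose protein holds the endostatin fragment, was at 1.56, 1.47, 1.39 and 1.49 in SA, 1.36, 1.31, 1.51 and 1.27 in LA and 1.24, 1.12, 1.99 and 1.19 in RA, against 0.70, 0.87 and 0.59 in LV and 0.73, 0.77, 0.67 and 0.53 in RV. It was higher than V by 0.78 ± 0.12 in SA (limma adjusted p = 4.67e-05) and by 0.68 ± 0.10 in the atria (adjusted p = 1.98e-05), the largest atrial difference among the collagens, with no overlap in either. Both other probes of Col18a1 lay at -0.43 and -0.82 on average and gave 0.10 and -0.03 for SA against V. Col15a1 lay between 0.62 and 1.49 and passed neither comparison, with 0.09 ± 0.12 in SA and 0.13 ± 0.10 in the atria.

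**Figure D3:**
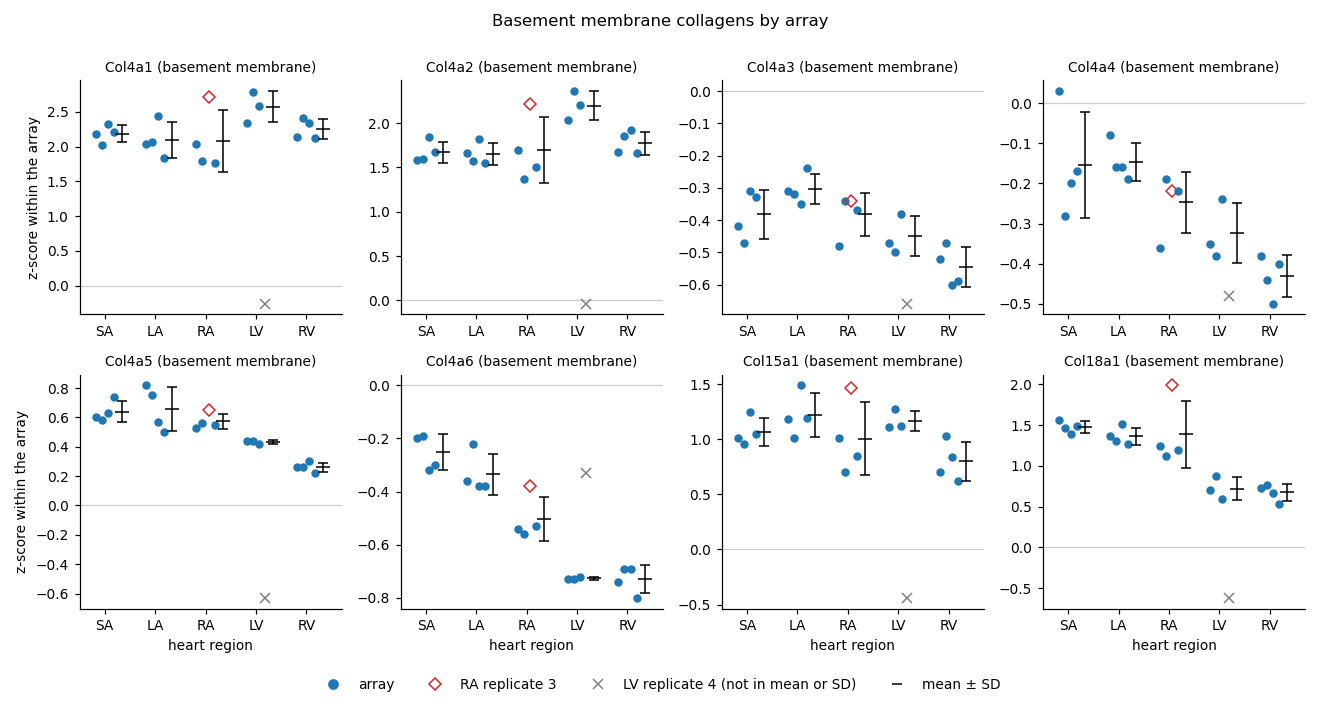
Z-score within the array (vertical axis) of the 8 basement membrane collagens in SA, LA, RA, LV and RV, with 1 point per array and the mean ± SD to the right of each group. Col4a1 and Col4a2 have their highest mean in LV, whereas Col4a5, Col4a6 and Col18a1 lie higher in all SA and atrial arrays than in the ventricular arrays, the cross of LV replicate 4 aside.

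Outside these classes, Col23a1, a transmembrane collagen, separated the atria from both other tissues. It was at 0.02, -0.05, -0.17 and 0.00 in LA and -0.28, -0.12, -0.18 and 0.02 in RA. In SA it was at -0.42, -0.35, -0.57 and -0.59, and in the ventricles between -0.62 and -0.54. The atria were higher than V by 0.47 ± 0.04 (limma adjusted p = 1.17e-07), SA was lower than LA by -0.43 ± 0.06 (adjusted p = 8.58e-05) and lower than RA by -0.34 ± 0.06 (adjusted p = 0.000854), and SA differed from V by 0.08 ± 0.05, which did not pass. These 3 calls held in all 27 alternatives. Col28a1 was highest in SA, with -0.28, -0.44, -0.33 and -0.40 in SA, -0.60 to -0.51 in LA, -0.59 to -0.49 in RA and -0.70 to -0.52 in the ventricles. Every SA array lay above every other of the 19 arrays, with a difference of 0.25 ± 0.04 against V (adjusted p = 7.21e-05). Col7a1, the anchoring fibril collagen, was higher in SA than in V by 0.13 ± 0.04 and Col8a2 was lower by -0.12 ± 0.04, both below 0 in all arrays and with overlap between the groups. These calls were lost in 8 and 4 of 26 alternatives. A second Col7a1 probe, at -0.76 on average, gave -0.03 for SA against V. Col6a6 of the beaded filaments, Col10a1 of the short chain networks and Col26a1 lay between -0.93 and -0.56 in all 19 arrays and passed neither comparison. The 3 other transmembrane collagens, Col13a1, Col17a1 and Col25a1, lay below 0 and passed neither comparison.

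The next comparisons asked whether the SA differed from the neighbouring atrial muscle. Against RA, 3 of 37 collagens passed, or 8.11%, against 9.71% of all genes, with 2 higher (5.09% of all genes) and 1 lower (4.62%). Col28a1 was higher in SA than in RA by 0.18 ± 0.04 (limma adjusted p = 0.0128) and Col4a6 by 0.25 ± 0.05 (adjusted p = 0.00144), while Col23a1 was lower, as given above. The Col28a1 call against RA was lost without SA replicate 1. Against LA, 4 of 37 passed, or 10.8%, against 10.6% of all genes, with 3 higher (5.94%) and 1 lower (4.66%). These were Col1a1, higher in SA by 0.65 ± 0.15 (adjusted p = 0.00732), Col16a1, higher by 0.54 ± 0.10 (adjusted p = 0.000962), Col28a1, higher by 0.185 ± 0.04 (adjusted p = 0.00943), and Col23a1. The median difference was 0.01 over the collagens and 0.00 over all genes in both comparisons. Every SA array lay above every RA array for 3 of the 37 members (6.78% of all genes) and below for 1 (6.11%). Relative to LA these were 4 of the 37 members (7.11%) and 2 (5.59%). Col1a2, unlike Col1a1, was not called against LA, and it differed from LA by 0.07 ± 0.11 and from RA by -0.02 ± 0.11. The difference between the changes of Col1a1 and Col1a2, a pair chosen after their values were seen, was 0.585 for SA against LA and 0.39 for SA against RA, a comparison between 2 probes whose slopes may differ, each with an exact permutation p of 0.0286, the smallest that 4 against 4 arrays can give.

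RA replicate 3 was the array with the highest collagen values of its region. It was the highest of the RA arrays for all 10 collagens that lay above 0 in every array and for 18 of the 37, against 23.8% of all genes. For those 10 it exceeded the mean of the other RA arrays by 0.10 to 0.85, with a median of 0.65, against a median of -0.003 over all genes. Col4a1 was at 2.72 there, against 2.04 or less in the other RA arrays, and Col5a1 was at 2.15, against 1.43 or less. LA replicate 3 was likewise the highest LA array for 9 of the 10, against 20.8% of all genes, with a median excess of 0.28. LV replicate 2 and RV replicate 2 were each the highest of their region for 7 of the 10, against 24.8% and 22.1% of all genes. SA replicate 3 was so for 6 of the 10, against 27.7%. Without RA replicate 3, 11 of 37 collagens passed between SA and RA, or 29.7%, against 8.65% of all genes, with 10 higher in SA and 1 lower. The 8 added genes were Col1a1, Col3a1, Col5a1, Col6a1, Col6a2, Col14a1, Col16a1 and Col18a1, with differences from 0.23 for Col14a1 to 0.55 for Col1a1. All 3 calls of the fit with 19 arrays remained. RA replicate 3 was singled out by its high collagen values, so leaving it out lowers the RA means of these 8 genes by construction. The added calls are therefore not separate support for a difference between SA and RA. Without that array, Col5a1 and Col6a2 were also called between SA and LA, by 0.32 ± 0.09 and 0.335 ± 0.09. Those differences hold no RA values and stayed the same, so only their SE and adjusted p changed.

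**Figure D4:**
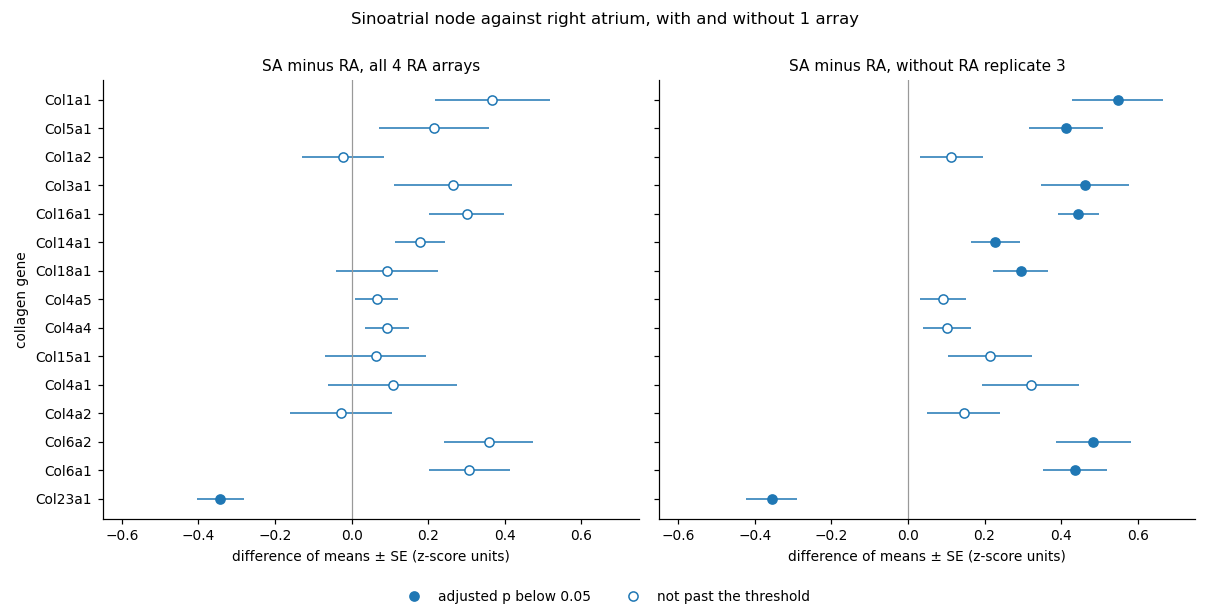
Difference SA minus RA with SE, in z-score units, of the 15 collagens above 0 in at least 1 array, with all 4 RA arrays on the left and without RA replicate 3 on the right. Filled points passed the threshold, and on the left only Col23a1 is filled, while on the right Col1a1, Col3a1, Col5a1, Col6a1, Col6a2, Col14a1, Col16a1 and Col18a1 are filled as well. Col4a6 and Col28a1 lay below 0 in all arrays and are not drawn. RA replicate 3 was singled out by its high collagen values, so the added calls on the right are not separate support.

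Some other gene lists, though not all, had a higher mean in RA replicate 3 than in the other RA arrays. The mean of 11 genes for procollagen cleavage and cross-linking was 0.54 there, against 0.24 to 0.29 in the other RA arrays, and that of 19 genes for collagen synthesis and export was 0.87, against 0.71 to 0.78. The 14 fibroblast markers averaged 2.11, against 1.81 to 1.97, and the 8 mesothelium markers 0.62, against 0.25 to 0.40. The 10 endothelium markers averaged 1.68, against 1.55 to 1.63, but RA replicate 3 was the highest RA array for only 3 of them. Pericyte markers averaged 0.28, against 0.27 to 0.34, and adipocyte markers 0.01, against 0.04 to 0.18. The part of these lists in the collagen values of this array was not tested. LV replicate 3 had the lowest fibroblast and pericyte means of the ventricles, 0.95 and 0.43. Without it 13 collagens passed between atria and V, 12 higher and 1 lower, or 35.1% of the members, against 36.5% of all genes. Col2a1, Col4a1, Col9a2, Col11a1 and Col19a1 were the calls lost.

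Left and right sides were compared within the atria and within the ventricles. The tests treated the arrays as unpaired, although titles of LA and RA, and of LV and RV, share numbers. No collagen passed between LA and RA, against 2.38% of all genes, and none between LV and RV, against 1.47%. At an unadjusted p below 0.05 there were 4 of the 37 collagens for LA against RA, where 11.1% of all genes were, and 6 of the 37 for LV against RV, where 14.9% were. The smallest limma adjusted p was 0.0774 for LA against RA, for Col4a6, which was at -0.36, -0.22, -0.38 and -0.38 in LA and -0.54, -0.56, -0.38 and -0.53 in RA, a difference of 0.17 ± 0.05. Between LV and RV it was 0.0869, for Col5a3, with 0.21 ± 0.06. Col4a2 was higher in all LV arrays than in all RV arrays, by 0.42 ± 0.14 (adjusted p = 0.167), as were Col15a1, by 0.37 ± 0.14 (adjusted p = 0.235), and Col4a5, by 0.17 ± 0.06 (adjusted p = 0.183). In 5 of the 37 members LV lay above RV without overlap, against 7.24% of all genes, and in 1 below, against 4.91%. LA lay above RA without overlap for 1 member, against 3.09% of all genes, and below for 0, against 3.34%. The difference between the left-right contrasts, (LA - RA) - (LV - RV), was called for 0 collagens and for 2.53% of all genes, with 6 collagens and 15.4% of all genes at an unadjusted p below 0.05. Single calls appeared when 1 array was left out: Col4a6 between LA and RA and Col4a2 between LV and RV without RA replicate 3, Col5a3 between LV and RV and in the difference of contrasts without LV replicate 1, and Col11a1 in both without LV replicate 2. Col11a1 also passed between LV and RV without RV replicate 3.

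Procollagen chains are hydroxylated, folded and exported from the cell before their ends are cut and the fibrils are cross-linked, and the genes of these steps were followed as lists. The list genes named as higher or lower passed the limma threshold. Of all genes, 18.4% were called higher and 24.0% lower in the atria than in V, and 17.0% and 16.2% in SA than in V. In SA, 5.09% were called higher and 4.62% lower than in RA, and 5.94% and 4.66% than in LA. Of 19 measured genes of synthesis and export, 11 were higher and 2 lower in the atria than in V, and 8 were higher and 3 lower in SA than in V, with median differences of 0.18 and 0.05. P3h3, a prolyl 3-hydroxylase, was higher in the atria by 0.49 ± 0.04, P4ha1, a catalytic subunit of the prolyl 4-hydroxylase, by 0.41 ± 0.06, Crtap by 0.39 ± 0.03 and the folding helper Fkbp14 by 0.39 ± 0.05. P4ha2, another catalytic subunit, was lower by -0.28 ± 0.05. Against RA, 6 of the 19 were lower in SA and none was higher. These were Mia3, an export receptor for large cargo, by -0.38 ± 0.06, Crtap by -0.31 ± 0.04, Serpinh1, the collagen chaperone HSP47, by -0.28 ± 0.08, and P3h1, P3h2 and P3h3, by -0.22, -0.22 and -0.21. Mia3 and P3h2 lay at or below 0 in all 19 arrays. Against LA, Mia3, Crtap and P3h1 were lower in SA.

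Of 11 measured genes of cleavage and cross-linking, 5 were higher in SA than in V and none was lower, and 5 were higher and 1 lower in the atria than in V. Bmp1, which cuts off the C-terminal propeptide of fibrillar procollagens, was higher in SA than in V by 0.68 ± 0.07, than in RA by 0.33 ± 0.08 and than in LA by 0.30 ± 0.08. Pcolce, an enhancer of that cut, was higher than in V by 0.67 ± 0.08 in SA and by 0.69 ± 0.07 in the atria. Pcolce2, a related enhancer, was higher than in V by 0.50 ± 0.05 in SA and by 0.60 ± 0.04 in the atria, and lower in SA than in RA by -0.29 ± 0.06. Loxl1, a cross-linking oxidase of the lysyl oxidase family, was higher than in V by 0.48 ± 0.12 in SA and 0.41 ± 0.10 in the atria. Of 8 measured collagen receptors, 2 were higher and 1 lower in SA than in V, 2 higher and none lower in the atria than in V, and 1 higher and 1 lower in SA than in each of RA and LA. Of all genes, 33.2% were called for SA versus V and 42.4% for atria versus V. The receptor counts against V lie near or below these shares and are not read as a trait of the receptors. Itga11, an integrin chain that binds fibrillar collagen, was higher in SA than in RA by 0.56 ± 0.10, than in LA by 0.62 ± 0.10 and than in V by 0.65 ± 0.09. Ddr1, a receptor tyrosine kinase for collagen, was higher than in V by 0.63 ± 0.05 in SA and by 0.73 ± 0.04 in the atria, and lower in SA than in RA by -0.27 ± 0.05. It was also lower in LA than in RA, by -0.345 ± 0.05. Ddr2, its relative, lay at or below 0 in all 19 arrays and was lower in SA than in LA by -0.17 ± 0.05 and higher in the atria than in V by 0.135 ± 0.04. Itga1, another integrin chain, was lower in SA than in V by -0.19 ± 0.07.

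Markers of cells that make collagen differed between the regions as well. Of all genes, 17.0% were called higher and 16.2% lower in SA than in V, and 18.4% and 24.0% in the atria than in V. In SA, 5.09% were called higher and 4.62% lower than in RA. The counts below stand beside these shares without a test. Of 14 fibroblast markers measured, 10 were higher and none lower in SA than in V, and 11 were higher and 1 lower in the atria than in V. Their mean lay between 1.89 and 1.96 in SA, 1.81 and 2.11 in the atria, and 0.95 and 1.63 in the ventricles, with only Postn at or below 0 in all 19 arrays. The ventricular low of 0.95 was that of LV replicate 3. Between SA and RA, 2 were higher (Pi16, by 0.99 ± 0.13, and Thy1, by 0.51 ± 0.08) and 4 were lower (Tcf21, Vim, Mgp and Lum). Smooth muscle markers were higher in SA than in RA for 6 of 9, with means of 1.20 to 1.55 in SA and 0.65 to 0.77 in RA, and lower in the atria than in V for 6 of 9. Adipocyte markers were higher in SA than in RA for 6 of 9, with means of 0.86 to 1.10 in SA and 0.01 to 0.18 in RA. Pericyte markers were lower than in V for 5 of 6 in the atria and for 5 of 6 in SA. Their means were 0.265 to 0.44 in the atria, 0.255 to 0.43 in SA and 0.43 to 1.01 in the ventricles, where the low of 0.43 was that of LV replicate 3. Of 8 mesothelium markers, 8 were higher in the atria than in V, and of 10 endothelium markers, 4 were higher and 4 lower. In SA, 1 endothelium marker was higher and 6 were lower than in V, and 5 were lower than in RA. Of 9 cartilage markers, 7 were at or below 0 in all 19 arrays. The part of these cell types in the collagen differences was not tested.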

How the data were processed

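Illumina MouseRef-8 v2 arrays were deposited as 1 table of 25697 probes and 20 arrays. The deposited values are z-scores (unit score): each array has a mean of 0 and an SD of 1. How they were made is not given in the sources used here. The study describes log2 transformation and median alignment with limma, and the submitters' processing notes name BeadStudio and GenomeStudio 2011.1. Probes were named through the platform annotation and RefSeq (1719 probes had no gene name). Per gene, the probe with the highest mean over 19 arrays was kept, giving 16593 genes. Region means were fitted with limma 3.58.1 in R 4.3.3 with eBayes, over 19 arrays without LV replicate 4, with no filter on low values, and p-values were adjusted by Benjamini-Hochberg over all genes (threshold 0.05). The study's methods used 2 LV arrays without naming them, so LV replicate 3 was also left out as an alternative. Differences are in z-score units, and the number of arrays limits their precision. Col1a1, Col3a1, Col5a1 and the collagens past the threshold were named, those with the largest differences in full, with up to 4 genes per list and comparison. P3h2 and P3h3 (SA versus RA) and the genes beside a direction count were added after their values were seen. Members and lists were chosen with earlier results of these data known. Alternatives were a filter (z-score above 0 in at least 1 array), quantile normalization, median alignment, the mean of all probes, 20 or 18 arrays, a trend in eBayes, the replicate number as a block and leaving out each array. The fit with 18 arrays is the same as leaving out LV replicate 3, so counts of alternatives hold it under both names. The fit was tested on simulated data. Promoters are RefSeq windows of GRCm38.p6.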

Additional observations from a re-analysis of the deposited data

Results flagged for a closer look

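In 13 of 148 sets of 4 arrays (37 collagens in SA, LA, RA and RV), 1 array lay further from the others than the 95% limit of Dixon's test, which chance gives in about 5% of sets. RA replicate 3 was that array for 5 collagens, and it was the high one in each. Col5a1 was at 2.15 in it, against 1.29 to 1.43 in the other RA arrays, and Col18a1 was at 1.99, against 1.12 to 1.24. Col16a1 was at 1.70, against 1.09 to 1.17, Col1a2 was at 1.12, against 0.52 to 0.61, and Col4a6 was at -0.38, against -0.56 to -0.53. Only Col16a1 was set apart in SA, where replicate 2 was at 1.48, against 1.59 to 1.60.

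The other 7 sets concerned collagens that lay below 0 in all 19 arrays. Col8a2 was at -0.58 in LA replicate 2, at -0.69 in RA replicate 2 and at -0.48 in RV replicate 4. Col4a6 was at -0.22 in LA replicate 2 and Col28a1 at -0.70 in RV replicate 3. Col10a1 was at -0.90 in RV replicate 2 and Col9a3 at -0.76 in RV replicate 1. In LV, replicate 4 stood apart from the other arrays by the same measure for 15 collagens. It was below all of them for 18 members and above all of them for 17. No share over all genes was counted for LV replicate 4 or for the sets above. LV replicate 4 correlated at -0.0223 with the other LV arrays, so these counts are not read as a trait of the collagens.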

How the results depend on the processing

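With all 20 arrays, collagen calls numbered 1 for SA versus RA, 1 for SA versus LA, 7 for SA versus V, 10 for atria versus V and 8 for the 5 regions, and the differences between atria and V turned to 0.029 for Col4a1 (limma adjusted p = 0.952) and to -0.049 for Col9a2 (adjusted p = 0.774). Over all genes, 264 instead of 1612 passed for SA versus RA, 263 instead of 1760 for SA versus LA, 1145 instead of 5501 for SA versus V, 1703 instead of 7031 for atria versus V, 67 instead of 395 for LA versus RA, 2 instead of 244 for LV versus RV, 41 instead of 420 for the difference of left-right contrasts and 1418 instead of 6449 for the 5 regions. The filter on low values left 15 collagens, of which 12 passed for SA versus V, against 55.3% of the 7618 genes kept. For atria versus V, 4531 genes passed, of which 58.2% were higher, against 43.4% without the filter. A single array above 0 was enough to pass this filter, so genes can enter only through the region where they are high. Col14a1 was below 0 in all ventricular arrays, and Col4a4 was above 0 only in SA replicate 1, at 0.03. The counts after the filter are therefore not separate support. Quantile normalization gave 5 collagens for SA versus RA, or 13.5% of the members, against 11.6% of all genes. For LV versus RV it gave 2 (Col5a3, 0.24, and Col11a1, 0.18), or 5.4%, against 2.38% of all genes. There, 395 genes passed for LV versus RV, 61.3% of them higher against 51.2%, and 633 genes for the difference of contrasts. The cause was not tested.

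Leaving out 1 array at a time gave 2 to 11 collagens for SA versus RA, 4 to 6 for SA versus LA, 16 to 19 for SA versus V, 13 to 21 for atria versus V, 0 to 1 for LA versus RA, for LV versus RV and for the difference of contrasts, and 16 to 21 for the 5 regions. Over all genes, LV versus RV ranged from 80 without RV replicate 4 to 257 without SA replicate 1. The main fit did not pair arrays by replicate number. Deviations of same-numbered arrays correlated at -0.0016 on average (-0.33 to 0.51), against 0.0007 for the others. This average also pools regions whose titles share no numbers, so it cannot decide whether arrays were paired. The replicate block joins such regions as well. With it, 5 collagens passed for SA versus RA, or 13.5% of the members, against 9.58% of all genes, with Col6a1 and Col6a2 added. For LV versus RV, 158 genes passed with it. The titles give LV and RV the same numbers, and same-numbered arrays of these regions correlated at 0.131 on average (0.0352 to 0.1791), against -0.0439 for the others, not above 0.1 in every pair. With a block for these pairs alone, chosen after seeing the data, 0 collagens passed for LV versus RV, against 121 genes (0.729%), and 0 for the difference of contrasts, against 320 genes (1.93%). LA and RA titles share numbers as well, and their same-numbered arrays correlated at 0.1438 on average (-0.2586 to 0.3385), against -0.0475 for the others. No block was fitted for LA and RA pairs alone. Without known signal over background, low values limit 22 of the 37 collagens.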
